A study of Mus musculus with 12 samples.

Results

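The transcripts of 10 B cell cytokine and BAFF receptors were followed by symbol in the count tables of splenic B cells: Tnfrsf13b, Tnfrsf13c, Il4ra, Il21r, Il10ra, Il2rg, Ifngr1, Il1r1, Lifr and Il6ra. They are 10 of the 24046 rows of each table, and 10 of 10 passed the filter on low counts. The cells were primary follicular (FO) B cells sorted from mouse spleen, either WT or Jmjd1c KO, at 0 h or 2 h of anti-IgM, an antibody that engages the B cell receptor. Each of the 4 groups had 3 libraries. The library names carry 6 animal numbers, each shared by a 0 h and a 2 h library of 1 genotype, and libraries are labelled as batch 1, 2 or 3, each batch spanning all 4 groups. The sources used here do not give the KO allele, any Cre driver, or the strain and age of the animals. Jmjd1c encodes a histone demethylase of the JmjC family.

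Most cytokine receptors have no enzyme of their own. They signal through JAK kinases bound to their cytoplasmic tails, and several share a chain: the common gamma chain Il2rg works with the IL-4, IL-21 and IL-2 receptors, and gp130 (Il6st) with the IL-6 and LIF receptors. The IL-1 receptor differs in that it uses an intracellular domain like that of Toll receptors, with MyD88 and IRAK kinases. BAFF, the survival factor of mature B cells, binds BAFF-R (Tnfrsf13c) and TACI (Tnfrsf13b), which act through TRAF proteins on NF-kB.

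Libraries held between 5666013 and 14153396 counts. Levels are given as CPM, the count scaled to a common library total with TMM factors. An observed 0 allows up to 3 counts, which was 0.183 to 1.02 CPM depending on the library, for counting error only. Jmjd1c was at 289 to 360.0 CPM in WT and 197 to 236 CPM in KO at 0 h, and at 269.7 to 322 CPM in WT and 199 to 213 CPM in KO at 2 h. Its log2 difference between genotypes was -0.56 at 0 h and -0.52 at 2 h, and neither passed the test (edgeR adjusted p = 0.99988 and 0.88744), although the libraries of the genotypes did not overlap. Both 2 h libraries of batch 1 and all 4 libraries of batch 2 stood apart. The ribosomal RNA row Rn45s took 52.3% of counts in KO 2 h replicate 1, 24.8% in WT 2 h replicate 1 and 12.9% to 15.5% in batch 2, against at most 1.09% elsewhere. Mpo, a granule enzyme of myeloid cells, followed the same split, at 444 CPM in KO 2 h replicate 1, 115 CPM in WT 2 h replicate 1, 49.9 to 71.9 CPM in batch 2 and at most 3.18 CPM elsewhere. Results are therefore also given without these 2 h libraries of batch 1, and within single animals. No alternative left out batch 2 as a whole, so values without the 2 h libraries of batch 1 still include libraries that stood apart.

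The sequences below lie just upstream of the start sites of Il1r1, which rose most of the 10 receptors at 2 h, of Lifr, which fell most, and of Il6ra, the other receptor with a motif match. Each is the 250 bases before a RefSeq start (GRCm38.p6), written 5′ to 3′ on the gene's strand. Capitals mark a motif match. Coordinates are chr1:40224830-40225079 (+) and chr1:40266336-40266585 (+) for the Il1r1 starts at 40225080 and 40266586, chr15:7129322-7129571 (+) and chr15:7140292-7140541 (+) for the Lifr starts at 7129572 and 7140542, and chr3:89913197-89913446 (-) for the Il6ra start at 89913196.
Il1r1, start at 40225080: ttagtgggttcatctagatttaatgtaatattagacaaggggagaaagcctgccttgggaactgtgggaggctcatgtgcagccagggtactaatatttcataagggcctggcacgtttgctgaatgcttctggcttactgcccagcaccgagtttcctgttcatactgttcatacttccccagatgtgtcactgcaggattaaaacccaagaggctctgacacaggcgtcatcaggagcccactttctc
Il1r1, start at 40266586: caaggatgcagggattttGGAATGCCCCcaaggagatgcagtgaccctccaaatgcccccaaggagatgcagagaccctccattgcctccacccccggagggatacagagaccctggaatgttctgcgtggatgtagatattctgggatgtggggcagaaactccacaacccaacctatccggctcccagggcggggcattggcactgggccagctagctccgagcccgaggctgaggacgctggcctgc
Lifr, start at 7129572: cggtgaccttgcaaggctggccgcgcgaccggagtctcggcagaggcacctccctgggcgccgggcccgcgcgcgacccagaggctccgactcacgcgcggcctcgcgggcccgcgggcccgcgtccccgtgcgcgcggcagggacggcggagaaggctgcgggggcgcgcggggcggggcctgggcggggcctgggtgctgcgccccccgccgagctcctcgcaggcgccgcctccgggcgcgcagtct
Lifr, start at 7140542: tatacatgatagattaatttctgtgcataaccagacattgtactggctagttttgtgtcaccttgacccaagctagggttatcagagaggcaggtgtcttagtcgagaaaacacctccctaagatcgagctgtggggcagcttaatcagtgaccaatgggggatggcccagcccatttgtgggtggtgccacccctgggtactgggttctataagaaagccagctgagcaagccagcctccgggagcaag
Il6ra, start at 89913196: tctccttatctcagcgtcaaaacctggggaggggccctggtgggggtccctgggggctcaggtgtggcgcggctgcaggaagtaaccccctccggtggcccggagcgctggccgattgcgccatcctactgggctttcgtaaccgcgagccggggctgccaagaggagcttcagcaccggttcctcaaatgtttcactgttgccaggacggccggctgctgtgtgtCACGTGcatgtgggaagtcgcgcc

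The promoter table held 11 starts for 9 of the 10 receptors and none for Il10ra, which was therefore not searched. A search for 5 motifs covered both strands of these windows and of the same 250 bases of all 32851 promoters of the table: AP-1 (TGANTCA), EGR (GCGTGGGCG), the CACGTG E-box, NF-kB (by name) and STAT (TTCNNNGAA). The NF-kB motif matched 1 of the 11 receptor windows, with GGAATGCCCC lying 232 to 223 bases before the second Il1r1 start, and 7.25% of all promoters. The E-box matched 1 of 11, 24 to 19 bases before the Il6ra start, and 6.02% of all promoters. AP-1, EGR and STAT motifs matched 0 of the 11 windows, against 6.75%, 0.536% and 7.02% of all promoters. The upstream windows of the Lifr starts differed in base composition, at 82.4% GC for the first and 50.8% for the second. The counts are per gene and do not tell the starts of a gene apart.

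In resting WT cells, the 10 receptors spanned a wide range of transcript level per exon length. The highest was Il2rg at 176 ± 8.13 CPM per kilobase of exon (mean ± SD, n = 3 here and below). Tnfrsf13c followed at 119.9 ± 12.6, then Il21r at 95.2 ± 14.8, Il10ra at 71.8 ± 2.99, Il4ra at 56.7 ± 3.80 and Ifngr1 at 41.7 ± 3.04 CPM per kilobase. The other 4 receptors were far lower: TACI (Tnfrsf13b) at 6.50 ± 1.53, Il6ra at 4.77 ± 0.344, Il1r1 at 0.384 ± 0.181 and Lifr at 0.243 ± 0.0543 CPM per kilobase. The order also rests on the exon lengths used, whose error the spread of libraries does not measure. Neighbours in this order had libraries that did not overlap, apart from Tnfrsf13c with Il21r and Il1r1 with Lifr. BAFF-R was thus the more abundant of the BAFF receptors in each library, and BCMA (Tnfrsf17), the plasma cell receptor of the same family, did not pass the filter.

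After 2 h of anti-IgM the order in WT had changed. Il21r, at 154 ± 23.7 CPM per kilobase, stood above Tnfrsf13c at 123 ± 14.1, with no overlap between their libraries. Il10ra, at 20.8 ± 4.45, stood below Il4ra at 57.9 ± 6.95 and Ifngr1 at 31.4 ± 3.36. Il1r1 reached 2.90 ± 0.880, next to Il6ra at 3.26 ± 0.503, and these overlapped. Lifr was last at 0.0528 ± 0.0142 CPM per kilobase. In KO at 2 h the first 3 receptors, Il2rg, Tnfrsf13c and Il21r, overlapped in turn, with SDs of 42.0 to 42.9 CPM per kilobase.

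**Figure D1:**
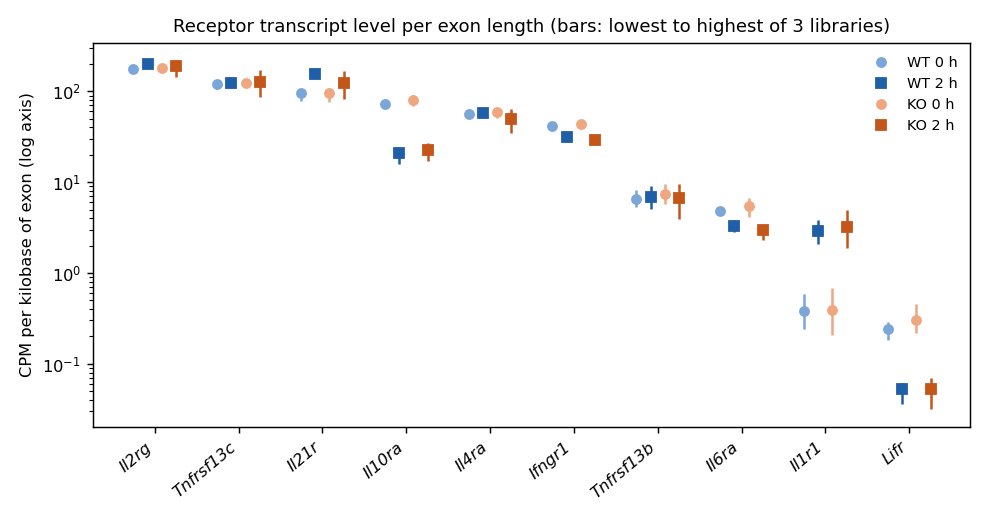
Transcript level per exon length (CPM per kilobase, log axis) of each receptor, ordered by the WT 0 h mean. Points are means and bars run from the lowest to the highest of 3 libraries. Il1r1 rises and Il10ra and Lifr fall between 0 h and 2 h in both genotypes.

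The genes lie on 8 chromosomes in the GENCODE annotation of GRCm38. Il4ra (chr7:125552120-125579474) and Il21r (chr7:125603429-125633570) are neighbours on the + strand of chromosome 7. The others are Tnfrsf13b (chr11:61126755-61149372), Tnfrsf13c (chr15:82221743-82224369), Il10ra (chr9:45253837-45269149), Il2rg (chrX:101264378-101268255), Ifngr1 (chr10:19591949-19610229), Il1r1 (chr1:40225080-40317257), Lifr (chr15:7090614-7197489) and Il6ra (chr3:89864059-89913196). Of the exon bases of Il2rg, 30.5% are shared with Gm20489 on the same strand. Exons of Il4ra and Il6ra share 9.51% and 2.8% of their bases with an antisense gene, Gm44876 and Gm42809. How the counting treated such bases and strand is not given, so values of these 3 genes are less certain.

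The first question of the design was how receptor transcripts responded to 2 h of B cell receptor stimulation. In WT, Il1r1 rose and Il10ra, Lifr and Ifngr1 fell. In KO, the same 4 genes moved the same way and Il6ra fell as well. This makes 1 of 10 higher and 3 of 10 lower in WT, where 19.8% of the 12242 tested genes were called (10.7% higher and 9.06% lower). In KO it makes 1 of 10 higher and 4 of 10 lower, where 27.1% of genes were called (14.1% higher and 13.0% lower). The 0 h and 2 h libraries did not overlap for 7 of 10 receptors in WT, against 43.9% of all tested genes, and for 5 of 10 in KO, against 37.5%. The receptors were chosen with earlier results of these data known, so these shares describe them and do not measure enrichment. The median log2 difference of the 10 was 0.033 in WT and -0.19 in KO, against 0.009 and 0.043 over all genes. The KO median was 0.029 without KO 2 h replicate 1 and -0.008 without both 2 h libraries of batch 1. In RNA of bulk samples, fewer cells with a transcript and less transcript per cell cannot be told apart.

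**Figure D2:**
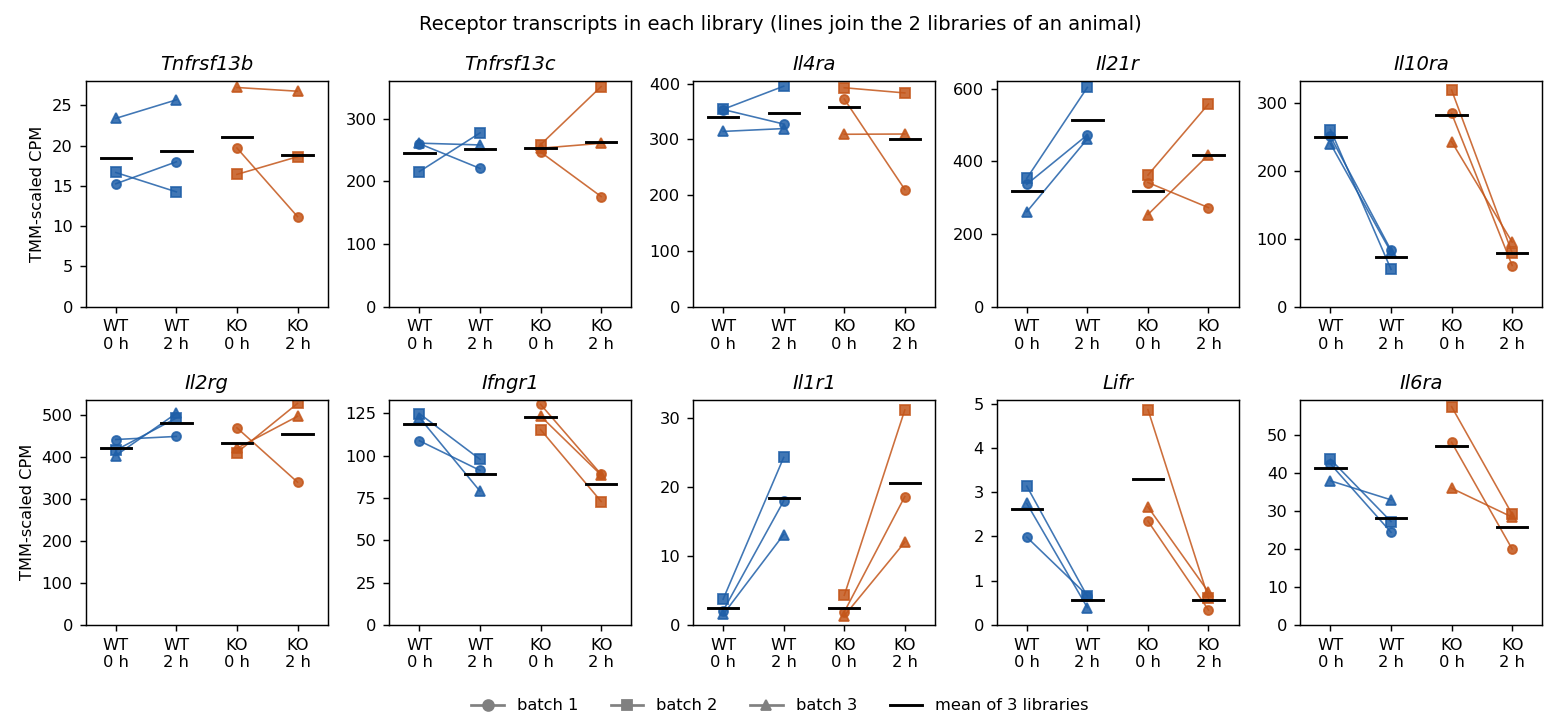
TMM-scaled CPM of the 10 receptors in the 12 libraries, 1 panel per gene, with the axis starting at 0. Symbols mark the batch, lines join the 0 h and 2 h libraries of an animal, and black bars are group means. Il1r1 climbs and Il10ra, Lifr, Ifngr1 and Il6ra drop along every line. Circles at KO 2 h (replicate 1) sit lowest of that group for Tnfrsf13b, Tnfrsf13c, Il4ra, Il21r, Il10ra, Il2rg, Lifr and Il6ra.

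**Figure D3:**
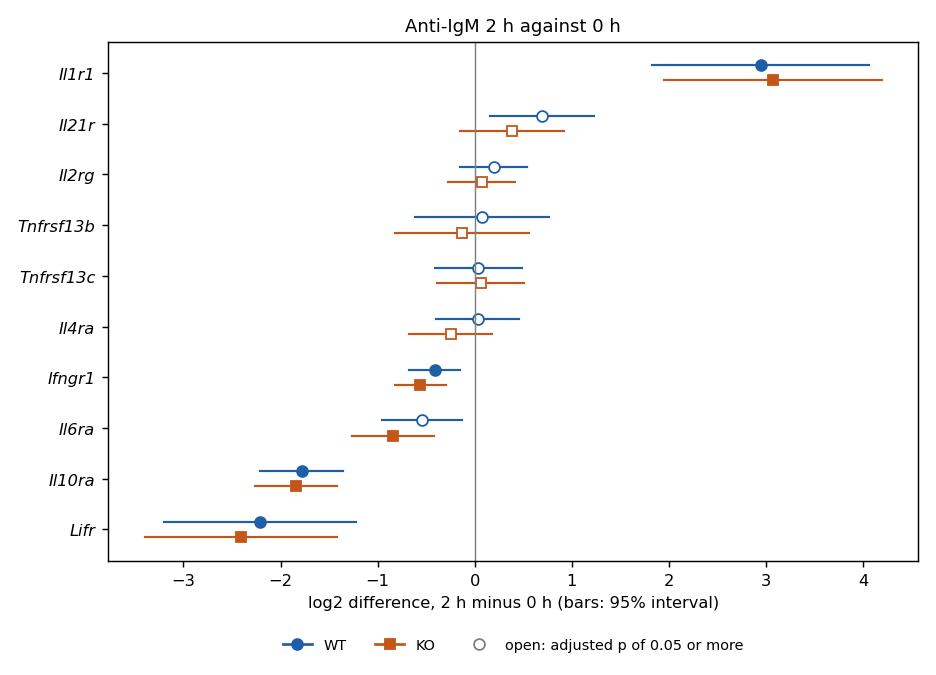
Log2 difference between 2 h and 0 h in WT (circles) and KO (squares), with 95% intervals from the edgeR model. Filled symbols passed an adjusted p of 0.05. Il1r1 is the filled pair on the right, at 2.94 and 3.07, and Lifr and Il10ra are the filled pairs on the left.

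Il1r1 encodes the signalling receptor for IL-1 alpha and IL-1 beta. In WT it was at 2.06, 3.74 and 1.53 CPM at 0 h in replicates 1, 2 and 3, and at 18.0, 24.3 and 13.1 CPM at 2 h. KO values were 1.89, 4.30 and 1.33 CPM at 0 h and at 18.6, 31.2 and 12.01 CPM at 2 h. The lowest 2 h library thus lay above the highest 0 h library, and batch 2 was highest and batch 3 lowest within each of the 4 groups. The rise was 7.69-fold in WT (log2 2.94 ± 0.51 SE, edgeR adjusted p = 0.0024) and 8.39-fold in KO (3.07 ± 0.51, adjusted p = 0.0014). Within animals, on the log2(CPM + 0.5) scale, it was 2.85, 2.55 and 2.75 in WT and 2.997, 2.72 and 2.77 in KO. In the batch 3 animals, the rise was 2.75 and 2.77, and Mpo was at 0.743 to 1.73 CPM. Without both 2 h libraries of batch 1 the difference was 2.93 in WT and 3.10 in KO, with adjusted p = 0.0040 and 0.0025.

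Lifr, the signalling receptor for leukaemia inhibitory factor, had the lowest mean level per exon length of the 10 receptors in each group. At 0 h its libraries overlapped those of Il1r1 on that scale in both genotypes. In CPM, Il1r1 was the lower at 0 h, with means of 2.44 against 2.62 in WT and 2.51 against 3.29 in KO. In WT, Lifr had 25, 26 and 45 counts at 0 h and 5, 4 and 5 counts at 2 h, or 1.99, 3.14 and 2.75 CPM against 0.666, 0.647 and 0.393 CPM. KO libraries had 31, 43 and 40 counts at 0 h and 1, 5 and 12 counts at 2 h, or 2.35, 4.87 and 2.67 CPM against 0.338, 0.604 and 0.743 CPM. All 6 libraries at 2 h lay below all 6 at 0 h, and the single count of KO 2 h replicate 1 was under the floor of 3 counts. The fall was 4.64-fold in WT (log2 -2.21 ± 0.45 SE, edgeR adjusted p = 0.0057) and 5.30-fold in KO (-2.41 ± 0.45, adjusted p = 0.0027). It was -2.25 in KO without KO 2 h replicate 1 (adjusted p = 0.0048). Within animals it ranged from -2.28 to -1.09 on the log2(CPM + 0.5) scale, which understates changes of low genes.

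Il10ra encodes the ligand-binding chain of the receptor for IL-10, a cytokine that restrains inflammation. In WT it went from 251, 261 and 241 CPM at 0 h to 83.1, 54.9 and 80.3 CPM at 2 h. In KO it went from 285, 319.9 and 244 CPM to 60.6, 79.3 and 95.2 CPM. The highest 2 h library, at 95.2 CPM, was far below the lowest 0 h library, at 241 CPM. This was a 3.44-fold fall in WT (log2 -1.78 ± 0.19 SE, edgeR adjusted p = 2.1e-04) and a 3.58-fold fall in KO (-1.84 ± 0.19, adjusted p = 1.2e-04). All 6 animals showed it, with log2 changes between -2.24 and -1.35.

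Ifngr1, the ligand-binding chain of the interferon gamma receptor, moved less. It was at 109, 125 and 123 CPM at 0 h and 91.4, 97.9 and 79.1 CPM at 2 h in WT. The KO libraries were at 130.4, 115 and 123 CPM at 0 h and 89.0, 73.0 and 88.6 CPM at 2 h. Ranges of the times did not overlap in either genotype, and all 6 animals were lower at 2 h. The fall was 1.33-fold in WT (log2 -0.41 ± 0.12 SE, edgeR adjusted p = 0.033) and 1.48-fold in KO (-0.56 ± 0.12, adjusted p = 0.0057). The WT call of Ifngr1 was lost when 1 of several libraries was left out, with values of -0.40 (adjusted p = 0.0859) for replicate 2 of WT 0 h and -0.39 (0.106) for its replicate 3. They were -0.43 (0.0618) for replicate 1 of WT 2 h and -0.33 (0.142) for its replicate 3, and -0.42 (0.0558) with no filter on low counts.

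Il6ra, the IL-6-binding chain that associates with gp130, was at 42.3, 43.6 and 37.9 CPM at 0 h and 24.4, 27.2 and 32.9 CPM at 2 h in WT. KO libraries were at 48.0, 57.4 and 35.9 CPM at 0 h and 20.0, 29.1 and 28.4 CPM at 2 h. It was lower at 2 h in all 6 animals, least in batch 3, where the log2 change was -0.20 in WT and -0.34 in KO. It fell 1.79-fold in KO (log2 -0.84 ± 0.19 SE, edgeR adjusted p = 0.0075). The WT difference of -0.55 ± 0.19 did not pass (adjusted p = 0.064). DESeq2 called it in WT (adjusted p = 0.0340), as did the fit of only the groups compared (0.0191).

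Of the common gamma chain family, the followed receptors Il21r, Il2rg and Il4ra made no call at 2 h in either genotype. Il21r, the receptor of the T helper cytokine IL-21, was at 336, 353 and 261 CPM at 0 h and 472, 603 and 461 CPM at 2 h in WT, with no overlap. The KO libraries gave 341, 362 and 253 CPM at 0 h and 272, 557 and 418 CPM at 2 h, where replicate 1 alone was lower than its 0 h library. The difference was 0.69 ± 0.25 in WT (edgeR adjusted p = 0.068) and 0.39 ± 0.24 in KO (adjusted p = 0.25). With the batch number as a block, WT was called (log2 0.69, adjusted p = 0.0277), and also with DESeq2 (0.0197), with only the groups compared (0.0126) and without both 2 h libraries of batch 1 (0.0245). KO was called without KO 2 h replicate 1 (log2 0.61, adjusted p = 0.0356).

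Il2rg, the shared chain itself, was at 441, 415 and 403 CPM at 0 h and 448, 492 and 503 CPM at 2 h in WT, which did not overlap. In KO it was at 469, 409.8 and 419.98 CPM at 0 h and 339.5, 527 and 496 CPM at 2 h, which did. Its log2 difference was 0.20 in WT (95% interval -0.15 to 0.54) and 0.071 in KO (-0.28 to 0.42). Il4ra, the IL-4-binding chain of a receptor that drives class switching, was at 314 to 354 CPM in WT at 0 h and 319 to 395 CPM at 2 h. KO libraries ranged over 309 to 392 CPM at 0 h and over 209.9 to 383 CPM at 2 h. The difference was 0.029 in WT (-0.40 to 0.46) and -0.25 in KO (-0.68 to 0.18). The KO value of Il4ra rested on KO 2 h replicate 1, without which it was -0.048.

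Neither BAFF receptor was called at 2 h in WT or KO. BAFF-R (Tnfrsf13c) was at 260.1, 216 and 261 CPM at 0 h and 221, 277 and 258 CPM at 2 h in WT. The KO libraries had 247, 259 and 253 CPM at 0 h and 176, 352 and 261 CPM at 2 h, so that the KO 2 h libraries lay on both sides of the 0 h ones. Its log2 difference was 0.037 in WT (95% interval -0.41 to 0.49) and 0.059 in KO (-0.39 to 0.51). TACI (Tnfrsf13b), which also binds APRIL, was at 15.2, 16.7 and 23.4 CPM at 0 h and 18.0, 14.2 and 25.7 CPM at 2 h in WT. Its KO libraries were at 19.7, 16.4 and 27.2 CPM at 0 h and 11.2, 18.6 and 26.7 CPM at 2 h. Batch 3 was highest in each group, and the difference was 0.073 in WT (-0.62 to 0.76) and -0.13 in KO (-0.82 to 0.56). For each BAFF receptor, 3 of 6 animals were higher at 2 h and 3 lower.

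The genes with the profile most like each of the 5 receptors that changed most were found by the root mean square difference of centred log2 CPM over the 12 libraries, as a description. Vegfa (0.29) and Myc (0.32) came closest to Il1r1, whose own SD over libraries was 1.54. Cblb (0.21) and Fgd2 (0.24) came closest to Lifr (SD 0.92), and Trp53i11 (0.17) and Rasgrp2 (0.18) to Il10ra (SD 0.98). For Il6ra (SD 0.43) they were Prkcb (0.12) and Rfx1 (0.12), and for Il21r (SD 0.41) Ahctf1 and Nup188 (0.11 each).

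The second question was whether loss of Jmjd1c altered the receptors. No receptor passed the test between KO and WT at 0 h, where 0% of the tested genes were called, or at 2 h, also 0%. Of the 10 receptors, 0 reached an unadjusted p under 0.05 at either time, and DESeq2 also called 0 of them. Over all genes, 91 reached an unadjusted p under 0.05 at 0 h and 640 at 2 h, and DESeq2 called 1 and 2. The libraries of KO and WT overlapped for 10 of 10 receptors at both times, against 5.85% of genes without overlap at 0 h and 8.22% at 2 h.

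**Figure D4:**
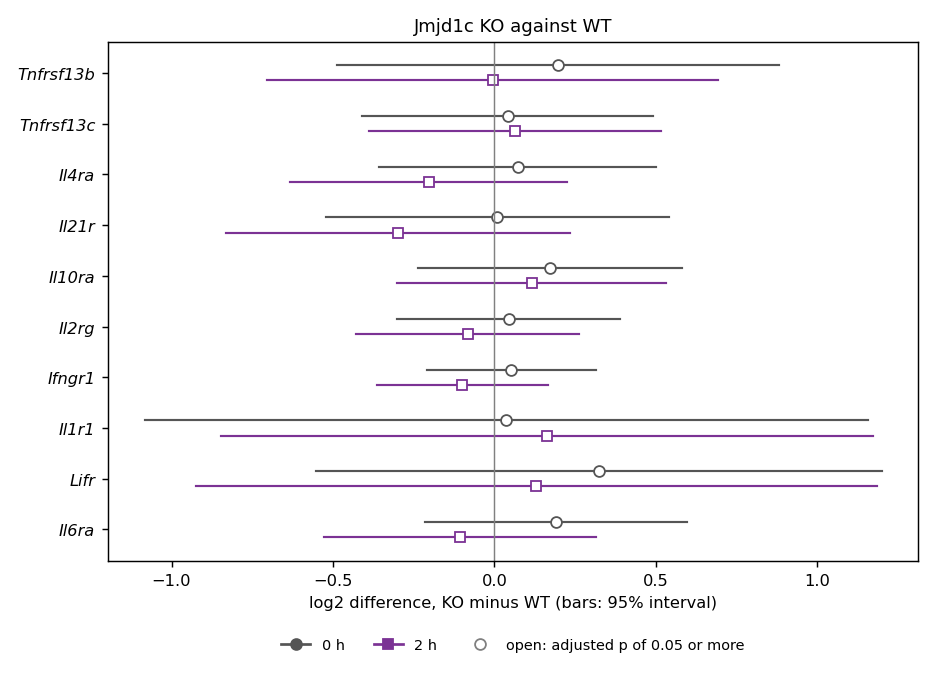
Log2 difference between KO and WT at 0 h (circles) and 2 h (squares) for each receptor, with 95% intervals. Every symbol is open, since none passed the test, and every interval crosses 0. Il1r1 and Lifr have the widest intervals and Ifngr1 the narrowest.

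At 0 h the KO minus WT differences ran from 0.009 for Il21r to 0.32 for Lifr on the log2 scale, and at 2 h from -0.30 for Il21r to 0.16 for Il1r1. The intervals say how large a difference these 3 libraries per group leave possible. They were narrowest for Ifngr1, at -0.21 to 0.31 at 0 h and -0.36 to 0.17 at 2 h. For Il2rg they were -0.30 to 0.39 and -0.43 to 0.26, and for Il10ra -0.24 to 0.58 and -0.30 to 0.53. BAFF-R lay at 0.041 (-0.41 to 0.49) at 0 h and 0.063 (-0.39 to 0.52) at 2 h, and Il4ra at 0.072 (-0.36 to 0.50) and -0.20 (-0.63 to 0.23). Il21r at 2 h had an interval of -0.83 to 0.23. The 2 h differences of Il4ra and Il21r rested on KO 2 h replicate 1, and were -0.003 and -0.070 without it. Il1r1 was the least precise at 0 h, with -1.08 to 1.16, and Lifr at 2 h, with -0.92 to 1.18. A p that misses the threshold does not show that the genotypes act alike, and for these scarce transcripts a change of more than 2-fold was within the interval.

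The third question was whether the response to anti-IgM differed between genotypes. The difference of responses was called for 0% of genes, at 40 genes with an unadjusted p under 0.05 and 0 by DESeq2, and for 0 of the 10 receptors by either tool (0 at an unadjusted p under 0.05). Il6ra and Ifngr1 had KO minus WT responses of -0.30 (95% interval -0.88 to 0.29) and -0.15 (-0.52 to 0.22). That Il6ra was called in KO and not in WT therefore does not show a difference between them (edgeR adjusted p = 0.99995). For Il1r1 the difference was 0.13 (-1.39 to 1.64), for Lifr -0.19 (-1.61 to 1.23) and for Il10ra -0.057 (-0.64 to 0.53).

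Chains that pair with these receptors, along with the related receptors Il1r2 and Tnfrsf17, were taken from a list of 10, of which 7 were tested. In both genotypes 2 of 7 rose and 1 fell, against 19.8% of all genes called in WT and 27.1% in KO. Ifngr2, the signalling chain of the interferon gamma receptor, fell with its partner Ifngr1, from 185 ± 32.9 to 85.7 ± 5.69 CPM in WT (log2 -1.10 ± 0.16 SE, edgeR adjusted p = 0.0010) and from 193 ± 30.9 to 81.9 ± 10.3 CPM in KO (-1.23 ± 0.16, adjusted p = 4.1e-04). Il1r2, a decoy receptor that binds IL-1 without signalling, rose with Il1r1, from 4.35 ± 0.535 to 18.7 ± 5.22 CPM in WT (2.10 ± 0.40, adjusted p = 0.0042) and from 6.19 ± 2.60 to 20.2 ± 9.32 CPM in KO (1.71 ± 0.40, adjusted p = 0.0086). Il2ra, the high-affinity chain for IL-2, rose by 2.55 ± 0.38 in WT and 2.05 ± 0.37 in KO (adjusted p = 0.0011 and 0.0023). Il10rb, Il1rap, Il6st and Il2rb were not called, at 0.38, 0.49, 0.23 and -0.67 in WT. The IL-1 co-receptor Il1rap was thus at 10.4 ± 0.703 CPM at 0 h and 14.6 ± 1.92 CPM at 2 h in WT. Osmr, which pairs with gp130 for oncostatin M, had 0 counts in all 12 libraries.

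Of 27 other cytokine receptors tested, 0 were higher and 2 lower in WT, and 2 higher and 2 lower in KO, against 19.8% and 27.1% of all genes called, with median log2 differences of -0.056 and 0.11. Il17ra, the shared IL-17 receptor chain, fell in both (-0.51 and -0.58). Il20rb fell in WT (-1.24, adjusted p = 0.045), and was at -1.15 but not called without both 2 h libraries of batch 1 (adjusted p = 0.0914). Its KO value of -0.84 was not called. In KO, Il15ra (1.30) and Csf2ra (0.63) rose and Il5ra fell (-1.23). Their WT values of 0.57, 0.21 and -0.73 were not called. At 0 h, Il5ra was at 17.5 to 39.7 CPM in WT and 48.2 to 52.7 CPM in KO, a genotype difference that was not called. Without KO 2 h replicate 1, Il5ra was at -1.01 and not called (adjusted p = 0.0799). Of 15 other TNF receptors, 0 were called in WT and 2 in KO, where Tnfrsf21, a death receptor, was higher (2.78) and Ngfr, the low-affinity neurotrophin receptor, lower (-1.79). Tnfrsf21 in KO rested on KO 2 h replicate 1, at 48.1 CPM against 14.5 and 7.62 CPM in the other 2 h libraries, and was not called without it (1.74, adjusted p = 0.0833). Ngfr was at -1.85 and called without KO 2 h replicate 1 (adjusted p = 0.0471), and at -1.89 and not called without both 2 h libraries of batch 1 (adjusted p = 0.0545). Cd40, the receptor for T cell help, was not called at -0.24 in both genotypes, but passed in WT with the 2 h libraries of batch 1 left out (-0.30, adjusted p = 0.0496).

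**Figure D5:**
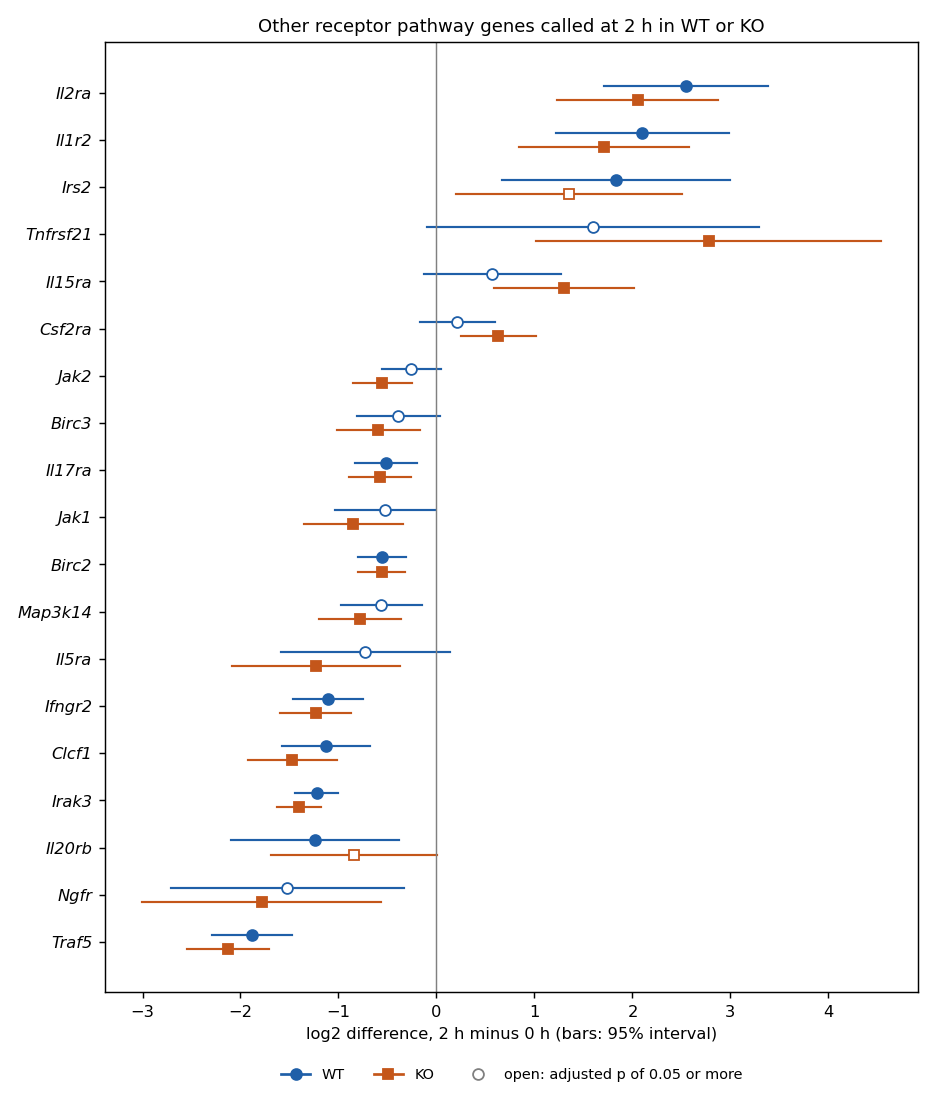
Log2 difference between 2 h and 0 h, with 95% intervals, for the 19 listed partner, receptor, signalling and ligand genes called in at least 1 genotype. Circles are WT, squares KO, and filled symbols passed an adjusted p of 0.05. Il2ra and Il1r2 are at the top with rises in both genotypes, and Traf5 is at the bottom with falls in both.

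Of 24 tested signalling genes of the BAFF, JAK and IL-1 pathways, 1 was higher and 3 lower in WT, and 0 higher and 7 lower in KO, against 19.8% and 27.1% of all genes called. Without both 2 h libraries of batch 1, 2 were higher and 8 lower in WT, and without KO 2 h replicate 1, 2 were higher and 7 lower in KO (1 and 7 without both). Traf5, an adaptor of TNF receptors, fell by 1.89 in WT and 2.13 in KO on the log2 scale (SE 0.19 each, edgeR adjusted p = 1.4e-04 and 5.7e-05). Birc2 (cIAP1, a ubiquitin ligase that holds the non-canonical NF-kB pathway in check) fell in both, at -0.56 each. Irak3, an inhibitor of IL-1 receptor signalling, fell from 73.0 ± 3.11 to 31.3 ± 2.10 CPM in WT and from 70.8 ± 4.77 to 26.6 ± 2.23 CPM in KO (-1.22 and -1.40). Map3k14, the kinase NIK of the non-canonical pathway, fell in KO (-0.78), as did Jak1 (-0.85) and Jak2 (-0.55), and their WT values were -0.56, -0.53 and -0.26. Without both 2 h libraries of batch 1, Map3k14 (-0.54, adjusted p = 0.0035) and Jak1 (-0.56, adjusted p = 0.0224) were called lower in WT as well. Irs2, an adaptor of the IL-4 receptor, rose in WT (1.83 ± 0.53, adjusted p = 0.032). In KO at 2 h it was at 65.7 CPM in replicate 1 and 431 and 345 CPM in the others, and was called without that library (1.81, adjusted p = 0.0015). Between genotypes at 2 h, 24 of 24 signalling genes were lower in KO in sign, with a median of -0.18 against 0.007 over all genes and 0 at an unadjusted p under 0.05. Without KO 2 h replicate 1 this was 16 of 24, with a median of -0.055.

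Of 18 listed ligands, 8 were tested and 1 was called in each genotype, against 19.8% of all genes in WT and 27.1% in KO. Clcf1, a ligand of the gp130 and LIF receptor family, fell from 93.2 ± 9.83 to 42.6 ± 3.83 CPM in WT (log2 -1.13 ± 0.20 SE, edgeR adjusted p = 0.0030) and from 101.8 ± 11.5 to 35.9 ± 12.2 CPM in KO (-1.47 ± 0.21, adjusted p = 5.6e-04). Tnfsf13b, the BAFF gene, did not pass the filter, with at most 1.07 CPM in any library.

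Markers were read beside these values. The B cell marker Ms4a1 was at 379 to 584 CPM at 0 h and 275 to 792 CPM at 2 h, and Cd79a, a signalling chain of the B cell receptor, at 446 to 652 CPM at 0 h and 247 to 392 CPM at 2 h. The follicular marker Fcer2a was at 397 to 599 CPM at 0 h and 224 to 655 CPM at 2 h, and Cr2 at 112 to 148 CPM at 0 h and 115 to 312 CPM at 2 h. Cr2 was called higher in WT (log2 1.004, adjusted p = 0.0387) and not in KO (0.86, adjusted p = 0.058), and the difference between these changes was not called. Of 4 listed marginal zone markers, S1pr3 rose in both genotypes, from 5.49 to 12.6 CPM at 0 h to between 79.2 and 193 CPM at 2 h. Cd1d1 of the same list fell in both (-0.88 and -1.05), from 9.05 to 17.5 CPM at 0 h to between 5.44 and 8.95 CPM at 2 h, and Cd9 and Dtx1 were not called. Of 6 T cell markers, 5 were in the files, and they summed to 59.7 to 103 CPM at 0 h and 107 to 184 CPM at 2 h. Lck made up most of it (37.9 to 61.3 CPM at 0 h and 90.7 to 159 CPM at 2 h), while Cd3e, Cd3d, Cd4 and Cd8a were at most 12.3 CPM in any library. Of 5 neutrophil markers, 4 were in the files, and they summed to 11.99 to 84.3 CPM in WT 0 h, 18.5 to 139 in WT 2 h, 30.1 to 62.1 in KO 0 h and 21.7 to 533 in KO 2 h. Mpo made up most of the highest sums, at 444 CPM in KO 2 h replicate 1 and 115 CPM in WT 2 h replicate 1. S100a8 and S100a9 were at most 23.7 and 24.0 CPM in any library, and Csf3r at most 40.6 CPM. Of 6 monocyte and macrophage markers, 5 were in the files, at 8.97 to 43.3 CPM in sum. Of the stromal and endothelial list, Col3a1 was at 0 in 3 of the 4 groups and Pecam1 fell from 177 to 224 CPM at 0 h to between 49.7 and 93.8 CPM at 2 h. Cdh5 and Col1a1 of that list were at most 1.02 and 0.157 CPM in any library, so Pecam1 did not stand for the list. Pdgfrb of that list was not called, at 0.0794 to 3.40 CPM at 0 h and 0.0619 to 23.0 CPM at 2 h (2.19 in WT and 2.74 in KO). The part of these cells in the receptor changes was not tested.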

How the data were processed

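RNA-seq libraries of 12 samples were analysed from the counts the authors deposited, raw whole-number counts per gene symbol. Reads were aligned with STAR to mm10, per the submitters' processing notes. The sources used here do not give the STAR version, counting tool, strand setting or annotation. Poly(A) RNA was used, per the labels' protocols.

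The filter filterByExpr kept 12242 genes, or 50.9% of rows. TMM factors were 0.522 to 1.20. All 12 libraries entered 1 quasi-likelihood fit of the 4 group means in edgeR 4.0.16 (R 4.3.3), which gave 5 contrasts, with two-sided tests and Benjamini-Hochberg adjustment over all tested genes. Genes with adjusted p below 0.05 count as called. SEs came from the F statistic. The script was tested on simulated data. CPM values were computed here. Exon lengths and positions were taken from GENCODE M21, and promoters from RefSeq. Nothing says how the cell preparations of the animals were separated, so p-values measure the spread between these libraries.

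The values of 1 listed marker are not reported here. The 10 receptors and the lists were chosen with earlier results of these data known. The naming rule covered the 10 receptors and Jmjd1c, up to 6 called genes per list and direction with the smallest p, and the 2 genes most like each of the 5 receptors with the largest change. The batch number pairs samples, since the labels call it a batch. Library deviations correlated at -0.37 to 0.57 within an animal, -0.40 to 0.86 between animals of a batch and -0.75 to 0.60 between batches. Library pairs within a group differed beyond sampling noise (chi-square per degree of freedom 13.4 to 843). Alternatives were RLE factors, library sizes without Rn45s, no filter, 1 CPM in 6 libraries, DESeq2 1.42.0, only the groups compared, blocks by batch or animal, each library left out, and both 2 h libraries of batch 1 left out. The batch block with DESeq2, and without those 2 libraries, was added after seeing the data.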

Additional observations from a re-analysis of the deposited data

How the results depend on the processing

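Each receptor's time and genotype differences were recomputed under 15 to 22 alternatives per value. The calls of Il1r1, Lifr and Il10ra held in both genotypes under all 17, as did those of Ifngr1 and Il6ra in KO. Ifngr1 in WT held under 12 of 17. In WT the number of receptors called was 4, and 3 to 6 under all alternatives but 1. With the replicate block by batch and without both 2 h libraries of batch 1, added after seeing the data, it was 7 in WT and 7 in KO, where Il2rg was called too (0.25 in both). With the replicate block by batch it was 5 in WT, with Il21r added, and 5 in KO. The block by batch or animal by itself changed no other call in edgeR. Over all genes, leaving out 1 library gave 1278 to 2216 calls in WT and 2251 to 3849 in KO, other alternatives 1939 to 5205 and 1735 to 5514. Between genotypes the batch block with DESeq2 called 4 genes at 0 h and 19 at 2 h, and no receptor. Depth limits Lifr most, with 1 to 12 counts at 2 h.

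Signs turned only for differences that were not called, and the cause was not tested. Leaving out 1 library in turn gave these log2 ranges. At 2 h against 0 h in WT, Tnfrsf13b ran from -0.20 to 0.28, Tnfrsf13c from -0.069 to 0.12 and Il4ra from -0.076 to 0.085. In KO, Tnfrsf13b ran from -0.47 to 0.11, Tnfrsf13c from -0.21 to 0.28 and Il2rg from -0.054 to 0.24. For KO against WT at 0 h, Tnfrsf13b ran from -0.031 to 0.41, Tnfrsf13c from -0.044 to 0.087, Il21r from -0.11 to 0.15, Il2rg from -0.017 to 0.083, Ifngr1 from -0.006 to 0.097, Il1r1 from -0.56 to 0.45 and Lifr from -0.060 to 0.52. At 2 h, Tnfrsf13b ran from -0.35 to 0.26, Tnfrsf13c from -0.21 to 0.28, Il10ra from -0.054 to 0.26, Il2rg from -0.20 to 0.088, Il1r1 from -0.29 to 0.45, Lifr from -0.11 to 0.30 and Il6ra from -0.20 to 0.025. For the KO minus WT response, Tnfrsf13b ran from -0.55 to 0.064, Tnfrsf13c from -0.25 to 0.24, Il10ra from -0.23 to 0.088, Il2rg from -0.25 to 0.044, Il1r1 from -0.33 to 0.72 and Lifr from -0.43 to 0.18.

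Without both 2 h libraries of batch 1, signs turned for Tnfrsf13b over time in KO (0.070), for Il2rg (0.046) and Tnfrsf13b (0.18) between genotypes at 2 h, and for the response differences of Il10ra (0.19) and Lifr (0.12). With the replicate block by batch added to that, they turned for Tnfrsf13b over time in WT (-0.002), Il1r1 between genotypes at 0 h (-0.006), Il2rg (0.045) and Tnfrsf13b (0.19) at 2 h, and the responses of Il10ra (0.19) and Lifr (0.24). The replicate block by batch alone turned Il1r1 at 0 h (-0.019), also with DESeq2 (-0.005). The replicate block by animal turned the response of Tnfrsf13c (-0.033).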
